A study of Mus musculus with 12 samples.

Results

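MHC class I molecules and the immunoproteasome were examined in the liver of adult offspring of dams with and without uncoupling protein 1 (UCP1). Of 10 genes named for this pathway, 9 had an annotated probe set, among 19505 annotated genes and 22206 probe sets tested. They were B2m, H2-K1, H2-D1, H2-Q4, Tap1, Tap2, Psmb8, Psmb9 and Psmb10. Nlrc5 was not analysed here. Each gene was represented by its brightest probe set. Liver RNA was measured on 12 arrays, 1 per mouse. The mice were C57BL/6J males, 4 to 5 months old, kept at 23 °C on standard chow. All 12 were heterozygous by the labels, and all sires were heterozygous. The dams of the mice on arrays 1 to 6 were wild-type (WT), and those of the mice on arrays 7 to 12 were UCP1-KO, giving n = 6 per group. The groups are called WT-dam offspring and KO-dam offspring. The question was whether the genotype of the dam went with a different level in the male offspring. The functional allele of an offspring came from the dam in one group and from the sire in the other, so dam genotype and parental origin of the allele cannot be told apart. The labels do not say which mice shared a litter or a dam, and the p-values therefore reflect only how much these 12 mice varied.

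MHC class I molecules carry peptides from inside the cell to its surface, where cytotoxic T cells and natural killer cells read them. The heavy chain pairs with beta-2-microglobulin in the endoplasmic reticulum and is loaded there with peptides that the TAP transporter brings in from the cytosol. Many of these peptides are made by the proteasome, and interferon exchanges its constitutive catalytic subunits for the inducible ones of the immunoproteasome. NLRC5 is a transactivator of MHC class I genes. Hepatocytes carry little class I at rest compared with immune cells, and liver macrophages and endothelium also express it.

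The promoters are shown first because several members lie next to each other or carry near-identical upstream sequence. RefSeq promoters of the build GRCm38.p6, each from 250 bases before to 50 after an annotated start, were matched for 8 of the 9 genes, Tap2 being the other. On chromosome 17 the protein-coding genes Psmb9, Tap1, Psmb8 and Tap2 follow each other in this order. Psmb9 and Tap1 are transcribed away from each other, and the 225 bases between their annotated starts at chr17:34187331-34187555 are shown on the strand of Tap1, with a CCAAT box and a GC box (GGGCGG on the other strand) in capitals:
Tap1-Psmb9: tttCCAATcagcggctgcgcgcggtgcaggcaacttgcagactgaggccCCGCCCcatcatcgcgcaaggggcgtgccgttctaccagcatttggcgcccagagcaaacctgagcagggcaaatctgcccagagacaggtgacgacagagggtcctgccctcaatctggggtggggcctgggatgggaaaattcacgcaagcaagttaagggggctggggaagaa

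The B2m promoter held the interferon-response letters GAAANNGAAA, in capitals in the stretch at chr2:122147523-122147582. The 3 heavy chain promoters held the shorter form GAANNGAAA, read here on the opposite strand and in capitals, in stretches at chr17:34000404-34000462 (minus strand, H2-K1), chr17:35262919-35262977 (plus strand, H2-D1) and chr17:35379439-35379497 (plus strand, H2-Q4):
B2m: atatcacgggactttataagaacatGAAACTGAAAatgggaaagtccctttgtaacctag
H2-K1: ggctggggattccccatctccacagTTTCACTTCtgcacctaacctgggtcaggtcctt
H2-D1: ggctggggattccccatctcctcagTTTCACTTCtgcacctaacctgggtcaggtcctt
H2-Q4: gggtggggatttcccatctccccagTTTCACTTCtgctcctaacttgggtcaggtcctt

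The stretches of H2-K1 and H2-D1 were identical at 58 of 59 bases, and each shared 54 of 59 with that of H2-Q4. On both strands, and with overlapping matches allowed, GAAANNGAAA was present in 3.44% of 32851 promoters of the same length and GAANNGAAA in 7.52%. CCAAT was present in 37.4% of promoters and in those of 6 of the 8 genes. GGGCGG was present in 35.7% and, among the 8, in those of Psmb9 and Tap1, whose windows overlap. TTCNNNGAA was present in 8.30% and, among the 8, in that of Psmb8. A match is a run of letters and was not tested as a binding site.

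None of the 9 genes was called between the offspring groups. At an adjusted p under 0.05 (limma, Benjamini-Hochberg over all probe sets) 0 of 9 passed, where 0.0360% of the 22206 probe sets did. At an unadjusted p under 0.05, 1 of 9 passed, Psmb9, where 13.1% of all probe sets passed in either direction and 6.00% were lower in KO-dam offspring. The groups of 6 arrays did not overlap for 0 of 9 genes, against 1.05% of all probe sets. The median difference of the 9 was -0.033 on the log2 scale, KO-dam offspring minus WT-dam offspring, with 5 of 9 below 0. Without WT-dam arrays 3 to 6, a setting that keeps only 2 arrays of that group, the median was -0.17. There 7 of 9 were below 0. Over all probe sets the median difference was 0.03 and 43.2% were below 0.

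**Figure D1:**
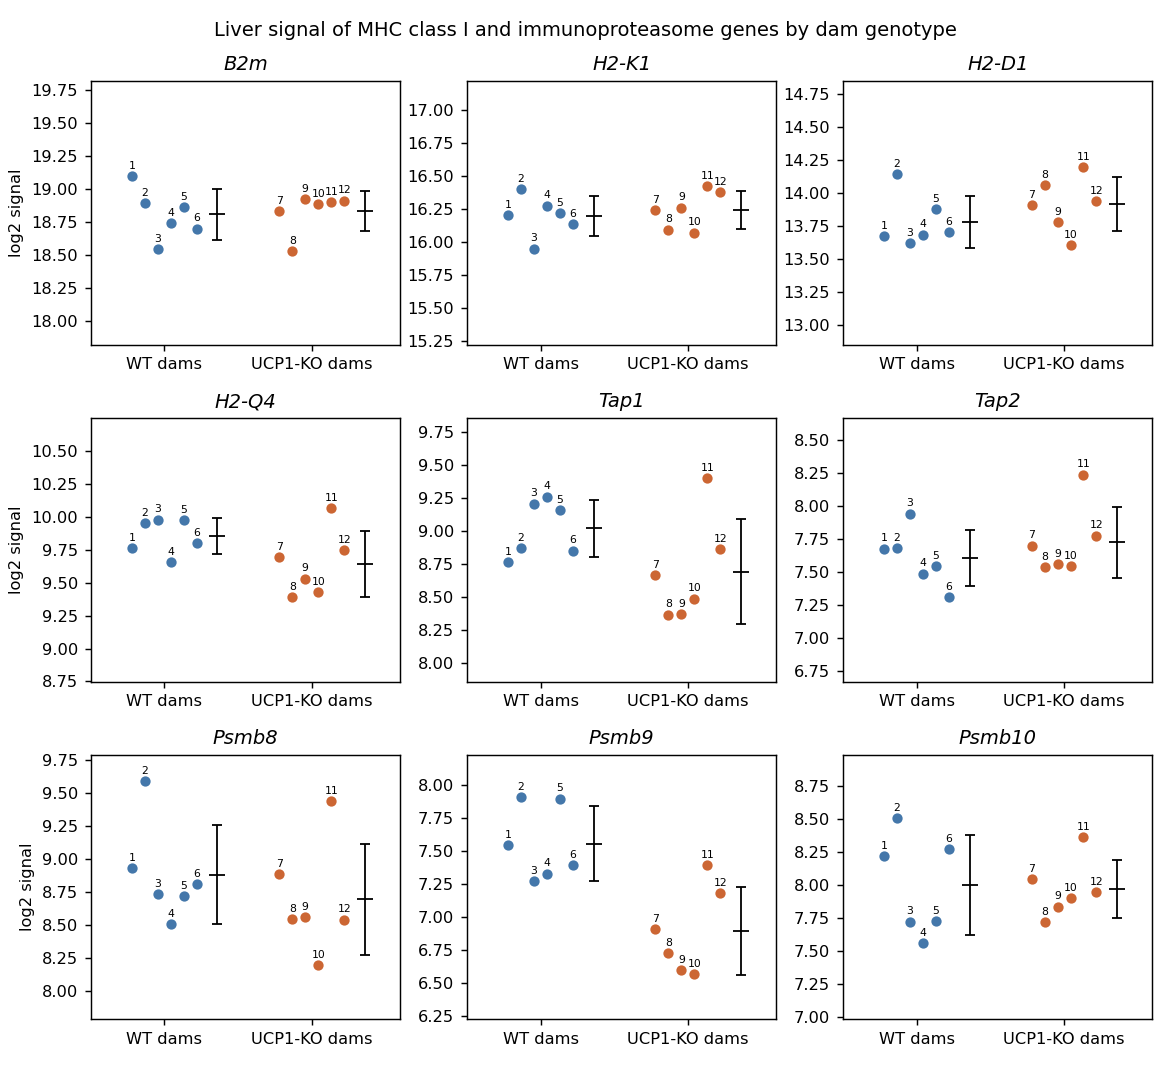
Log2 signal of each of the 9 genes on the 12 arrays, with 6 WT-dam offspring and 6 KO-dam offspring, and the mean and SD of each group. The groups overlap in every panel, and Psmb9 has 5 of 6 arrays of the KO-dam group below the lowest array of the WT-dam group.

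For the light chain and the heavy chains, no difference between the groups passed the test. B2m, which encodes beta-2-microglobulin, ran from 18.54 to 19.10 with a median of 18.80 in WT-dam offspring and from 18.53 to 18.92 with a median of 18.89 in KO-dam offspring. The groups overlapped, with the highest value on array 1 and the lowest on array 8. The means were 18.81 ± 0.19 and 18.83 ± 0.15 (SD, n = 6 each), a difference of 0.024 (95% interval -0.24 to 0.29, limma adjusted p = 0.965). This difference was below 0 under quantile normalization (-0.0058), median centring (-0.0057) and once the negative control signal entered as a covariate (-0.080).

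H2-K1, the classical heavy chain at the K locus, ran from 15.95 to 16.40 with a median of 16.21 in WT-dam offspring and from 16.07 to 16.42 with a median of 16.25 in KO-dam offspring. Array 11 was highest and array 3 lowest, and the groups overlapped. The difference was 0.047 (95% interval -0.21 to 0.30, limma adjusted p = 0.908), and -0.020 with the negative control covariate. H2-D1, the heavy chain at the D locus, ran from 13.62 to 14.14 with a median of 13.69 and from 13.61 to 14.19 with a median of 13.92. Arrays 11 and 2, from different groups, were highest, and array 10 was lowest. The difference was 0.13 (95% interval -0.15 to 0.42, limma adjusted p = 0.722). It was 0.0067 without WT-dam arrays 3 to 6, 0.056 with the negative control covariate, 0.076 without array 11 and 0.20 without array 2.

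H2-Q4, a heavy chain of the Qa region, ran from 9.65 to 9.98 with a median of 9.88 in WT-dam offspring and from 9.39 to 10.06 with a median of 9.61 in KO-dam offspring. Of the 6 arrays of the KO-dam group, 3 lay below the lowest WT-dam array, while array 11 lay above all others. The difference was -0.21 (95% interval -0.50 to 0.07, limma adjusted p = 0.525), and -0.30 without array 11 (limma unadjusted p = 0.0342, adjusted p = 0.368). Class I heavy chain genes are related in sequence, so these probe sets may share signal and the values of single heavy chains are uncertain. Sharing of signal was not tested.

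The TAP transporter is a dimer of the products of Tap1 and Tap2. Tap1 ran from 8.76 to 9.26 with a median of 9.02 in WT-dam offspring and from 8.36 to 9.40 with a median of 8.58 in KO-dam offspring. In the latter group 4 of 6 arrays lay below the lowest WT-dam array, and array 11 was the highest of all 12. The means were 9.02 ± 0.21 and 8.69 ± 0.40 (SD, n = 6 each), a difference of -0.33 (95% interval -0.69 to 0.04, limma adjusted p = 0.433). Without array 11 the difference was -0.47 (limma unadjusted p = 0.00517, adjusted p = 0.224), and without WT-dam arrays 3 to 6, whose negative controls were bright, it was -0.13.

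Tap2 ran from 7.31 to 7.94 with a median of 7.61 in WT-dam offspring and from 7.54 to 8.24 with a median of 7.63 in KO-dam offspring. Array 11 stood above the rest and the other arrays of the groups overlapped. The difference was 0.12 (95% interval -0.19 to 0.43, limma adjusted p = 0.777), and 0.017 without array 11. Whether Tap1 and Tap2 differed from each other in their response was not tested.

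The inducible catalytic subunits are Psmb8, Psmb9 and Psmb10, which take the places of Psmb5, Psmb6 and Psmb7 in the immunoproteasome. Psmb9 ran from 7.27 to 7.91 with a median of 7.47 in WT-dam offspring and from 6.57 to 7.40 with a median of 6.82 in KO-dam offspring. The groups overlapped only through array 11, at 7.40. The means were 7.56 ± 0.28 and 6.90 ± 0.33 (SD, n = 6 each), a difference of -0.66 (95% interval -1.02 to -0.31), or a signal 1.58-fold higher in WT-dam offspring. With an unadjusted limma p of 0.00106 it ranked 182 of 22206 probe sets, and its adjusted p was 0.129, so it was not called. Over 23 alternative settings the difference ran from -0.83 to -0.59 and the limma adjusted p from 0.0858 to 0.574. The probe set was dim, with a mean 0.93 above the median of the negative controls on the log2 scale, a region where array values are compressed.

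Psmb8 ran from 8.50 to 9.59 with a median of 8.77 in WT-dam offspring and from 8.19 to 9.44 with a median of 8.55 in KO-dam offspring. Arrays 2 and 11, from different groups, were highest, and the remaining arrays overlapped. The difference was -0.19 (95% interval -0.61 to 0.24, limma adjusted p = 0.736). It was -0.046 without array 2, -0.34 without array 11 and -0.57 without WT-dam arrays 3 to 6, and none of these was called. Psmb10 ran from 7.56 to 8.51 with a median of 7.97 and from 7.72 to 8.36 with a median of 7.93. Arrays 2 and 11 were again highest, and all arrays of the KO-dam group lay within the range of the other group. The difference was -0.033 (95% interval -0.39 to 0.32, limma adjusted p = 0.963), with a sign that turned under quantile normalization (0.0078) and array weights (0.0016). It was -0.39 without WT-dam arrays 3 to 6 (limma adjusted p = 0.729) and -0.23 with the negative control covariate (limma adjusted p = 0.649).

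**Figure D2:**
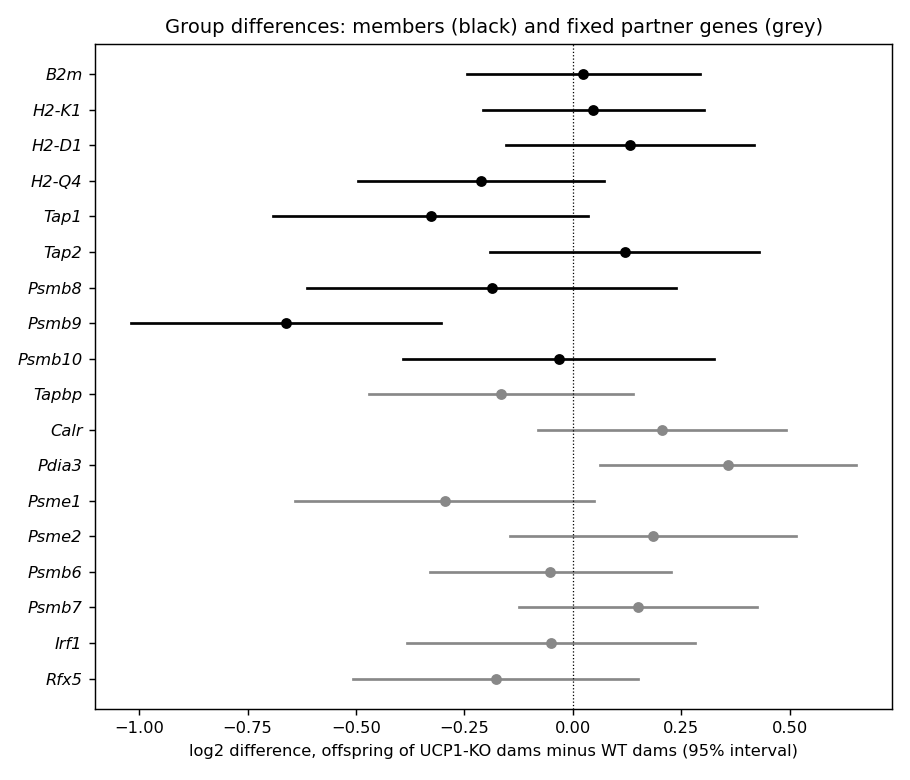
Log2 difference of each of the 9 genes (black) and of 9 partner genes (grey), KO-dam offspring minus WT-dam offspring, with the 95% interval of the limma fit. The interval of Psmb9 (-1.02 to -0.31) lies below 0, those of the other 8 black genes include 0, and that of the partner Pdia3 lies above 0.

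Each inducible subunit was also set against the constitutive subunit it replaces, as a log2 ratio on each array centred on its mean over the 12 arrays. Psmb6 itself differed by -0.05 (limma adjusted p = 0.907) and Psmb7 by 0.15 (limma adjusted p = 0.665). The ratio of Psmb9 to Psmb6 ran from 0.044 to 0.91 with a median of 0.085 in WT-dam offspring and from -0.88 to 0.49 with a median of -0.35 in KO-dam offspring. Of the latter, 5 of 6 arrays lay below the lowest WT-dam array. The group difference was -0.61, with p = 0.0368 in an exact two-sided permutation test over 924 relabellings and 0.0736 after Benjamini-Hochberg adjustment over the 2 ratios. Over 15 alternatives, each leaving out arrays, the difference ran from -0.77 to -0.49 and the adjusted exact permutation p from 0.00433 to 0.156. It passed in 3 of the 15, and all 3 left out array 11, the only KO-dam array that overlapped the other group, so that leaving it out separates the groups by construction. Leaving out WT-dam arrays 3 to 6 keeps only arrays 1 and 2 of that group. Few relabellings then exist, and this setting could hardly pass for either ratio. Without array 5, 9 or 2 the difference was -0.49, -0.49 or -0.54, with adjusted exact permutation p-values of 0.156, 0.147 and 0.126. The ratio of Psmb10 to Psmb7 differed by -0.18 (exact permutation p = 0.262, adjusted p = 0.262). It was -0.39 without WT-dam arrays 3 to 6, -0.31 without arrays 8, 10 and 11 and -0.099 without array 9, and passed in 0 of 15 alternatives. No probe set was annotated to Psmb5 in the table used here, so the ratio of Psmb8 was not analysed.

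**Figure D3:**
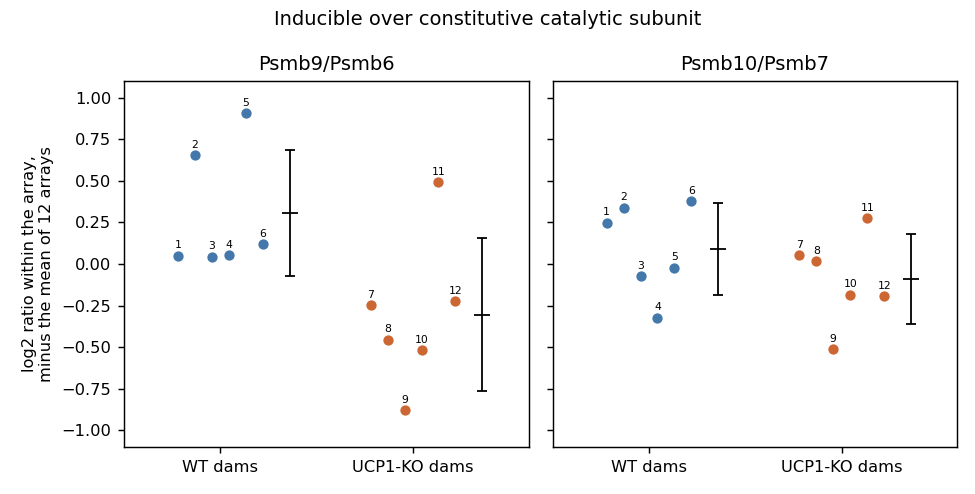
Log2 ratio of Psmb9 to Psmb6 and of Psmb10 to Psmb7 on each of the 12 arrays, centred on the mean over arrays, with the array number above each point and the mean and SD of each group. Array 11, at 0.49, is the array of the KO-dam group that overlaps the WT-dam group in the Psmb9 ratio.

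The rest of the pathway was followed through 7 lists, in each of which 0 genes were called. Over all 22206 probe sets 13.1% had an unadjusted limma p under 0.05, 1573 higher and 1333 lower. By list, this share was 22.2% of the loading and trimming genes, 5.56% of the other heavy chains and 15.4% of the constitutive subunits. It was 28.6% of the transcription and signalling genes, 15.4% of the interferon-inducible genes and 0% of the remaining lists. No list was tested against the share over all probe sets. Of the genes that load and trim peptides, 9 of 10 were measured, 3 were lower in KO-dam offspring and the median difference was 0.08. The median was 0.16 without arrays 2 and 11, a setting chosen after seeing the data, here and in the lists below. At an unadjusted limma p under 0.05, 2 were higher and 0 lower. They were Pdia3, the oxidoreductase ERp57 of the loading complex, at 14.89 ± 0.13 and 15.24 ± 0.28 (limma adjusted p = 0.280), and Canx, the chaperone calnexin, with a difference of 0.31 (limma adjusted p = 0.292). Calreticulin (Calr) differed by 0.20, tapasin (Tapbp) by -0.17 and the tapasin-related editor Tapbpl by -0.23, with limma adjusted p-values of 0.541, 0.666 and 0.475.

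Of the other class I heavy chains, 18 of 26 were measured, 10 were lower and the median was -0.02. At an unadjusted limma p under 0.05, 0 were higher and 1 was lower. It was Mr1, which presents microbial vitamin B metabolites to MAIT cells, at 8.48 ± 0.25 and 7.84 ± 0.41 (difference -0.64, limma adjusted p = 0.152). H2-T3 differed by 0.20 and Hfe, which regulates iron uptake, by 0.17.

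Of the constitutive 20S proteasome genes, 13 of 14 were measured, 2 were lower and the median was 0.15. At an unadjusted limma p under 0.05, 2 were higher and 0 lower. The subunits Psma5, Psma3 and Psma2 differed by 0.31, 0.28 and 0.24, with limma adjusted p-values of 0.259, 0.376 and 0.408. Leaving out WT-dam arrays 3 to 6 keeps only arrays 1 and 2 in that group. In that setting 7 of the 13 were lower and the median was -0.0094. Without arrays 8, 10 and 11, 12 were higher and the median was 0.20. Without arrays 2 and 11, 12 were also higher, with a median of 0.20. Of the proteasome activators and assembly factors, 10 of 10 were measured, 6 were lower and the median was -0.08, with 0 at an unadjusted limma p under 0.05. Without WT-dam arrays 3 to 6, 8 of 10 were lower and the median was -0.15. The PA28 subunits, which cap the proteasome after interferon, had differences of -0.30 for Psme1 (limma adjusted p = 0.459) and 0.18 for Psme2 (limma adjusted p = 0.655). The assembly chaperones Psmg2 and Psmg1 differed by -0.23 and 0.24.

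Of the genes of class I transcription and interferon-gamma signalling, 21 of 22 were measured, 11 were lower and the median was -0.04, and 0.034 without arrays 2 and 11. At an unadjusted limma p under 0.05, 3 were higher and 3 lower. Irf9, the DNA-binding part of the ISGF3 complex, ran from 8.61 to 9.26 in WT-dam offspring and from 8.24 to 8.47 in KO-dam offspring. Its groups did not overlap, as for 1.05% of all probe sets, and its limma adjusted p was 0.129. Rfxank, a subunit of the RFX complex that binds MHC promoters, stood at 9.66 ± 0.52 and 8.82 ± 0.38 (limma adjusted p = 0.134). Its partner Rfx5 differed by -0.18 and Irf1, an interferon-induced activator of class I, by -0.05 (limma adjusted p = 0.667 and 0.927). Irf8 differed by 0.32 but lay near the negative controls.

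Of the interferon-inducible GTPases and chemokines, 26 of 30 were measured and 19 were lower, with a median of -0.11. The median was -0.20 without WT-dam arrays 3 to 6 (20 lower) and -0.24 without arrays 8, 10 and 11 (22 lower). At an unadjusted limma p under 0.05, 0 were higher and 4 lower, or 15.4% of the 26 against 13.1% of all probe sets. Among the 4 was the guanylate-binding protein Gbp4 at 10.01 ± 0.36 and 9.14 ± 0.73 (limma adjusted p = 0.185). Usp18, which removes ISG15 and dampens interferon receptor signalling, differed by -0.67, and the chemokine Cxcl10 by -0.39 (limma adjusted p = 0.263 and 0.348). The chemokine Cxcl9, named after its values were seen, differed the other way by 0.76 (limma adjusted p = 0.406). Cxcl10 lay near the negative controls, and 7 of the 26 measured genes lay below them. Of the MHC class II genes, 9 of 10 were measured, 2 were lower and the median was 0.12, with 0 at an unadjusted limma p under 0.05. Signals of 4 of the 9 lay below the negative controls. Without WT-dam arrays 3 to 6, 6 of 9 were lower and the median was -0.11. H2-DMb2, H2-Eb2 and H2-Ob differed by 0.31, 0.20 and -0.18. Cd74 was not analysed here.

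**Figure D4:**
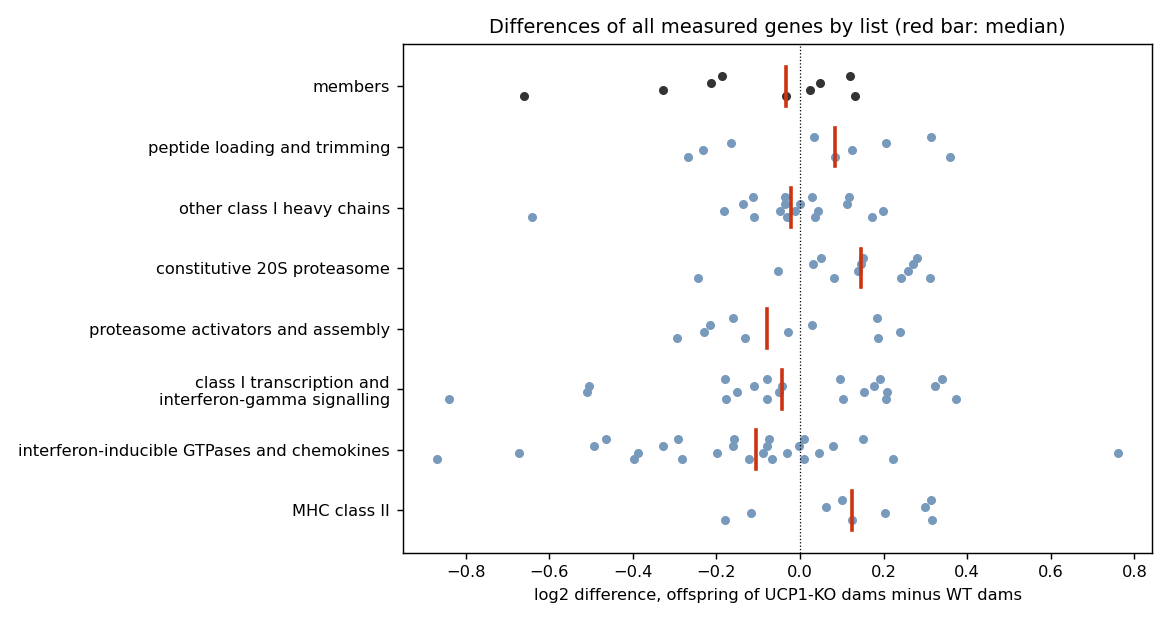
Log2 differences of the 9 genes (top row, black) and of the measured genes of each pathway list (blue), KO-dam offspring minus WT-dam offspring, with the median of each list as a red bar. The medians of the lists lie between -0.11 for the interferon-inducible genes and 0.15 for the constitutive proteasome, and 0 genes were called in any list.

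The spread between mice was described for the 9 genes, within the groups and over both groups together. Their median within-group SD was 0.243, against 0.273 over 10905 probe sets above the negative controls. Over the arrays of both groups together, from lowest to highest, the signal spanned 1.39-fold for H2-K1, 1.49-fold for B2m and 1.59-fold for H2-Q4. H2-D1 lay between the last pair. Such spans include any difference between the groups. The transporter and immunoproteasome genes spanned between 1.90-fold for Tap2 and 2.63-fold for Psmb8.

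A few mice were high or low for several of the genes. Array 11, of the KO-dam group, was highest for 5 of 9 genes and among the top 2 for 7. Array 2, of the WT-dam group, was highest for Psmb8, Psmb9 and Psmb10. Arrays 8 and 10, both of the KO-dam group, were among the lowest 3 for 7 and 6 genes. The mean of the 9 genes, each centred on its mean over arrays, was 0.36 on array 11, 0.31 on array 2, -0.24 on array 8 and -0.27 on array 10.

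**Figure D5:**
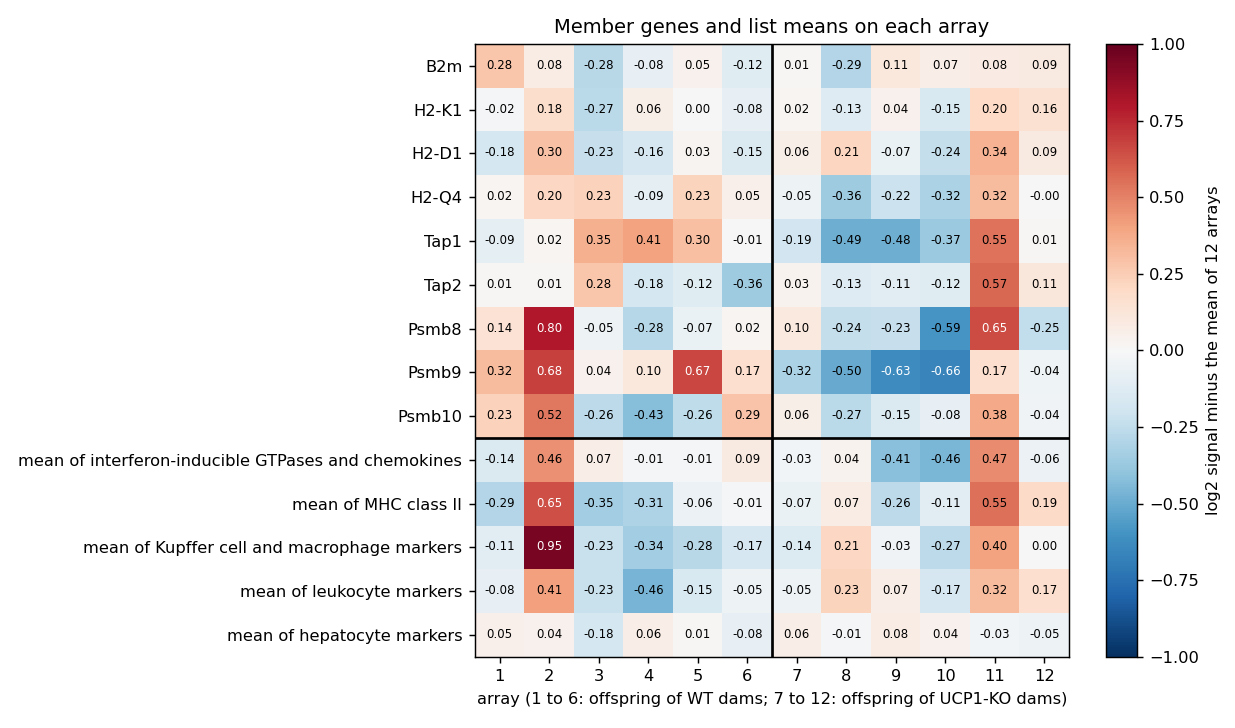
Log2 signal of each gene on each array (red above, blue below), centred on the mean of that gene over the 12 arrays, with the means of 5 lists in the lower rows. Array 11 is highest for 5 of the 9 genes and array 2 for 3, while array 8 is among the lowest 3 for 7.

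Over the 36 pairs of genes the median Pearson correlation across 12 arrays was 0.43, from -0.046 to 0.82, as a description of arrays that share group and normalization. Each r was also taken without the 2 arrays farthest from the median of the first-named gene, so the arrays left out differ by pair. H2-Q4 and Tap1 had r = 0.82 and Spearman's rho = 0.78, with r = 0.71 without arrays 8 and 10. H2-Q4 and Psmb9 had r = 0.82 and rho = 0.73, with r = 0.70 without the same arrays. Array 11 was kept in both of these. Psmb8 and Psmb10 had r = 0.79 and rho = 0.75, and r = 0.49 without arrays 2 and 11. The divergent neighbours Tap1 and Psmb9 had r = 0.68 and rho = 0.60, and r = 0.68 without arrays 8 and 11. With each group centred on its own mean, r for this pair was 0.55. For the other pairs of the 4 neighbouring genes, r was 0.64 for Psmb8 and Psmb9 and 0.50 for Tap2 and Psmb8. It was 0.49 for Tap1 and Tap2, 0.42 for Tap1 and Psmb8 and 0.13 for Tap2 and Psmb9.

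Among 9796 other genes above the negative controls, those whose pattern over the 12 arrays was most like the mean of the 9 were Pcca (r = 0.88), Slc20a2 (r = 0.88), Mdh2 (r = 0.87), Parp12 (r = 0.87) and Usp18 (r = 0.84). Without arrays 2 and 11 the values were 0.76, 0.80, 0.78, 0.94 and 0.75. These are the highest values among 9796 genes over only 12 arrays, and how high chance alone would reach was not tested. Usp18 is also on the interferon-inducible list.

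The tissue label was checked with hepatocyte markers, of which 11 of 12 were measured and all 11 lay above the negative controls, with a mean level over the list of 18.2 to 18.5. Macrophage markers, of which 13 of 14 were measured and all 13 lay above the negative controls, ran from 9.22 to 10.5 in WT-dam offspring and from 9.30 to 9.97 in KO-dam offspring. Their median difference was 0.08, with 8 of 13 higher in KO-dam offspring. It was -0.44 without WT-dam arrays 3 to 6, which leaves arrays 1 and 2 in that group. Without arrays 2 and 11, a setting chosen after seeing the data, it was 0.19, with 12 of 13 higher. Their centred level was 0.95 on array 2 and 0.40 on array 11, the arrays highest for most of the 9 genes. On the same arrays the class II list stood at 0.65 and 0.55, the interferon-inducible list at 0.46 and 0.47 and the general leukocyte list at 0.41 and 0.32. On array 8, among the lowest 3 for 7 of the 9 genes, the macrophage list stood at 0.21 and the leukocyte list at 0.23. On array 10, among the lowest 3 for 6 genes, the macrophage list stood at -0.27 and the leukocyte list at -0.17. The part of these cells in the levels of the 9 genes was not tested, and in whole liver fewer cells of a type and less RNA per cell cannot be told apart. Markers of T and NK cells lay below the negative controls for 18 of 20, of B cells for 6 of 7, of dendritic cells for 9 of 9 and of neutrophils for 7 of 8. Of the sinusoidal endothelial markers 12 of 12 were measured, with a median difference of -0.06 but single differences from -0.74 to 0.94. At an unadjusted limma p under 0.05, 1 of these 12 was higher and 2 lower, and 0 were called. Of the stellate cell and fibroblast markers 9 of 10 were measured, with a median of 0.10, and of the cholangiocyte markers 5 of 7, with -0.04. The general leukocyte markers, 8 of 8 measured, had a median of 0.18, with 7 higher in KO-dam offspring. Signals of 3 of the 8 lay below the negative controls. Their median was -0.0020 without WT-dam arrays 3 to 6 and 0.25 without arrays 2 and 11.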

How the data were processed

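Liver RNA of 12 mice was measured on 1 array each. Values were deposited as log2 signals, which the authors computed with the Transcriptome Analysis Console and robust multi-array averaging (RMA) per the submitters' processing notes, in versions that these do not name. RMA makes arrays alike in distribution and compresses dim signals. Columns were assigned to mice by sample identifier and to groups by dam genotype. Control rows were left out, and 22206 probe sets were fitted with limma 3.58.1 in R 4.3.3, two-sided, with dam genotype as the only term and Benjamini-Hochberg adjustment over all of them. The fit was tested on simulated data. Subunit ratios were compared by an exact permutation test. The number of arrays limits the precision.

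The members and the 7 pathway lists and marker lists were chosen with earlier results of these data known. All members were named; of each pathway list, genes past the threshold or otherwise up to 3 of smallest p, and fixed partner genes. Alternatives changed the normalization, centring, dim-probe filter, probe set rule, variance model, array weights, a negative control covariate and the arrays included. Promoters came from RefSeq.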

Additional observations from a re-analysis of the deposited data

Results flagged for a closer look

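In 22 groups of 6 values, 2 held an array far from the others, where chance gives about 1 in 20. B2m on array 8 was the lowest of the KO-dam group at 18.53, with the next array at 18.83 and the highest at 18.92. Tap2 on array 11 was the highest of the same group at 8.24, with the next array at 7.78 and the lowest at 7.54.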

How the results depend on the processing

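No gene of the 9 was called by limma under any of 23 alternatives, and the median difference ran from -0.22 to 0.042. B2m, H2-K1 and Psmb10 changed sign. B2m was -0.0058 under quantile normalization, -0.0057 under median centring, -0.080 with the negative control covariate and -0.17 without WT-dam arrays 3 to 6. H2-K1 was -0.020 with the covariate and -0.055 without arrays 3 to 6. Psmb10 was 0.0078 under quantile normalization and 0.0016 with array weights, but -0.39 without arrays 3 to 6 and -0.23 with the covariate. Leaving out each array in turn gave -0.029 to 0.084 for B2m, -0.0022 to 0.088 for H2-K1 and -0.12 to 0.068 for Psmb10. The ratio of Psmb9 to Psmb6 ran from -0.77 to -0.49 on leaving out single arrays. It was -0.66 without WT-dam arrays 3 to 6 (adjusted exact permutation p = 0.143), where few relabellings exist and passing was hardly possible. It was -0.75 without arrays 8, 10 and 11 (adjusted exact permutation p = 0.0476). Without arrays 2 and 11, a setting chosen after seeing the data, it was -0.70 (adjusted exact permutation p = 0.0159). It passed in 3 of 15 alternatives, all without array 11, and its adjusted exact permutation p reached 0.156. The cause was not tested. The other 6 genes kept their direction, H2-D1 at 0.0067 without arrays 3 to 6. Probe sets called over all genes numbered 8, and 0 without WT-dam arrays 3 to 6 or without arrays 8, 10 and 11, 2 with the covariate, 12 under quantile normalization, 22 with a trended robust variance, 32 without the dimmer 50%, and 1 to 112 on leaving out single arrays. No paired analysis was possible because the array numbers 1 to 12 do not repeat between the groups. Dim signals, such as that of Psmb9, limit the sizes that can be read.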
